A study of Mus musculus with 11 samples.

Results

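Perivascular macrophages are macrophages that sit around the blood vessels of the brain, outside the tissue that microglia occupy. Nuclei were taken as members where the class name deposited by the authors was Perivascular macrophages. They numbered 125 of 110304 nuclei, or 0.113%, against 1175 nuclei named Microglia (1.07%). These macrophages take up material from the fluid around the vessels through scavenger receptors such as the mannose receptor Mrc1 and the haemoglobin receptor Cd163. Microglia share their dependence on the receptor Csf1r but carry a different set of surface genes, among them P2ry12, Tmem119 and Cx3cr1. Both are resident macrophages of the brain, so microglia are the closest class for comparison.

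The nuclei came from snap-frozen brain of mice whose labels give 2 knocked-in copies of the human transferrin receptor (TfR), a genotype shared by all groups including the controls. Dosing was intravenous and weekly, 4 times, with tissue collected 72 h later. OTV:Malat1, at 60 mg/kg, couples an antisense oligonucleotide (ASO) against Malat1 to a molecule that binds the TfR (3 libraries). The conjugate nonTV:Malat1, at 60 mg/kg and titled RSV-ASO, carries the ASO without TfR binding (3 libraries), and in the Malat1 ASO group 2.5 mg/kg of the oligonucleotide was given uncoupled (2 libraries). The control ATV:BACE1, labelled as 57 mg/kg, binds the TfR and carries no ASO (3 libraries). Replicate 1 of each group was female and 2.33 months old, replicate 4 male and 2.57 months, and replicate 5 male and 2.33 months, and these numbers coincide with the deposited batches. Sex, age and batch can therefore not be told apart from the replicate number. Replicate 4 of Malat1 ASO was not analysed here. The labels give the brain region as posterior and the deposited metadata as cortex, and the metadata name the strain C57BL/6J with no knock-in.

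Nuclei of the class were few and shallow, which limits each value that follows. A library held 5 to 21 of them, with 138655 unique molecular identifiers (UMIs, counts of captured RNA molecules) in the 11 libraries together. The median nucleus had 866 UMIs and 697 genes, against 883 UMIs and 716 genes in microglia and 3926 UMIs in neurons. The deposited prediction score, a fraction of at most 1, had a median of 0.932 and was under 0.5 in 5 of the 125 nuclei. None of the 125 carried the authors' doublet call, which marked 2.21% of microglia and 10.4% of all nuclei. The authors' cluster 7 held 117 of the nuclei together with 1163 of the microglia, so their clustering did not separate the classes. Over all nuclei 1495 barcodes of 108788 occurred in more than 1 library. No barcode repeated among the perivascular macrophages, and 5 of theirs occurred in another library in some class. Among perivascular macrophages, library medians of the UMI count ran from 724 to 807.5 in ATV:BACE1. They were higher in the other groups: 941.5 to 1024.5 in nonTV:Malat1, 892 to 1124 in OTV:Malat1 and 994 to 998.5 in Malat1 ASO. The part of this depth difference in the comparisons between groups was not tested, apart from the thinned counts given with Malat1 below.

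The marker genes Mrc1, F13a1 (a subunit of coagulation factor XIII that macrophages also make) and Cd163 set the class apart from microglia and neurons. At least 1 UMI of these 3 genes was found in 124 of the 125 nuclei (99.2%, exact binomial 95% interval from 95.6%, which covers counting error only). The share was 2.72% in microglia, at a like median depth, and 2.96% in the deeper neurons. After each nucleus had been thinned to 500 UMIs the shares were 93.0%, 1.94% and 0.402%. Taken singly, F13a1 was found in 90.4%, Mrc1 in 89.6% and Cd163 in 30.4% of the nuclei, against 1.28%, 1.87% and 0.511% of microglia. These genes define the class, so their levels only describe it. They do not give the place of a nucleus in the tissue, so a perivascular position rests on the deposited name.

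The 3 marker genes are shown here by the stretch that ends at their start, because PU.1 (Spi1), a transcription factor on which macrophages depend, binds sites with a GAGGAA core. The windows were read from RefSeq promoter entries of build GRCm38.p6 and end before the first exon of the gene. They run 5′ to 3′ on the gene's own strand, with GAGGAA or its reverse complement TTCCTC in capitals.
Mrc1, chr2:14229164-14229391, plus strand: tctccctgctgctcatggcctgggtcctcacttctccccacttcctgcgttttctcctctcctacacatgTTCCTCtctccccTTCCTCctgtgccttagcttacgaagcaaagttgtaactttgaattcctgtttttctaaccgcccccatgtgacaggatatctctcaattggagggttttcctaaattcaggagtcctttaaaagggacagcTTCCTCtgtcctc
F13a1, chr13:37050245-37050494, minus strand: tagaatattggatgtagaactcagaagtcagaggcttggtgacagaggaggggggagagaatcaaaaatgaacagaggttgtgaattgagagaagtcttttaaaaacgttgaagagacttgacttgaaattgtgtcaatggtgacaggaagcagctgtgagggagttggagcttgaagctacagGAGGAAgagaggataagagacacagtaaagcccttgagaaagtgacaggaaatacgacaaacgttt
Cd163, chr6:124304401-124304650, plus strand: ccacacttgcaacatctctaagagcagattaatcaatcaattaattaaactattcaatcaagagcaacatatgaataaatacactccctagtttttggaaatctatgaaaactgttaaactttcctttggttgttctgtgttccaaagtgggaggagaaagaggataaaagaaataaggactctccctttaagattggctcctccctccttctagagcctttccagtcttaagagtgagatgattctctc
The Mrc1 window held 3 matches, the F13a1 window 1 and the Cd163 window 0. Of 32851 RefSeq windows of 250 bases before a start, 23.3% held at least 1 match on either strand. A match describes the letters and not a bound site.

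Against microglia, F13a1, Cd163, Aoah and Mrc1 had the highest ratios among genes with at least 50 UMIs in the class. Levels are given in CPM, a gene's UMIs scaled by all UMIs of the class, pooled over the 11 libraries. They compare a gene between the classes, not genes with each other. F13a1 stood at 3303 against 34.2 in microglia (96.6-fold). Across libraries it ran from 1790 to 4327 with a median of 3589 in perivascular macrophages and from 0 to 195 in microglia. Mrc1 stood at 2474 against 38.8 (63.7-fold), with libraries from 988 to 3909 in the class and from 0 to 109 in microglia. Cd163 stood at 418 against 4.66, a ratio of 89.8 whose counting interval of 38.8 to 255 reflects 58 UMIs against 6. The ranges of all 3 genes were apart in the 11 libraries. Of 13 perivascular macrophage markers, 12 were at least 4 times higher than in microglia and the remaining one, the folate receptor Folr2, had 1 UMI. Among 4683 genes with a mean of at least 50 CPM over both classes, 2.97% were at least 4 times higher in perivascular macrophages and 1.75% at least 4 times lower. The 8 markers in that set were all among the higher ones. Because the class names came from expression in these nuclei, nothing is read from that excess.

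**Figure D1:**
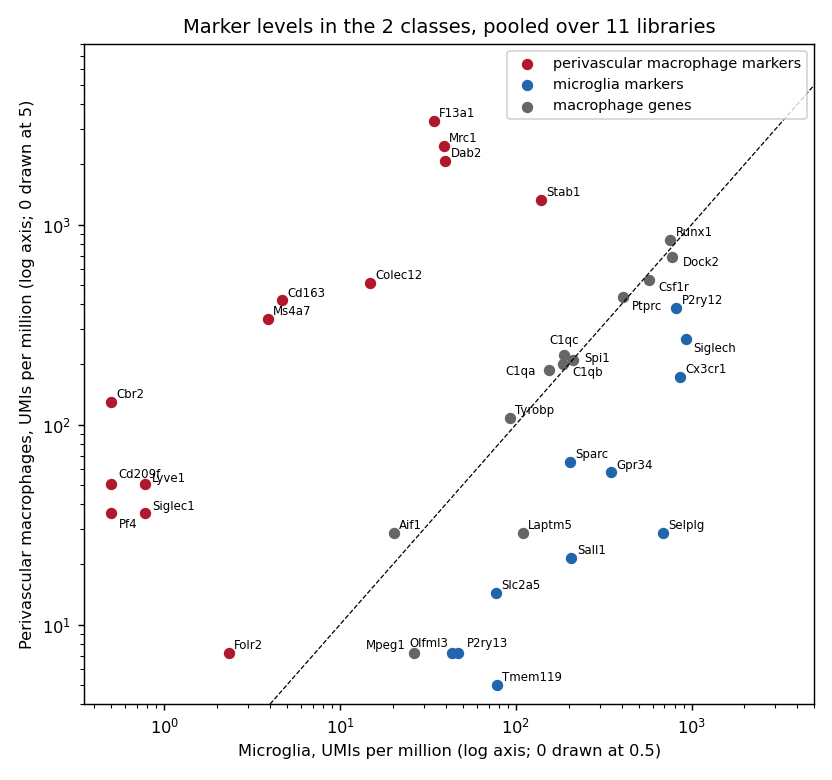
Pooled levels of genes from 3 marker lists in microglia (horizontal) and perivascular macrophages (vertical), in CPM on log axes, with genes at 0 drawn at the axis floor and equal levels on the dashed line. F13a1 (3303 against 34.2) and Mrc1 (2474 against 38.8) lie far above the line, most genes of macrophages in general lie along it, and Selplg (28.8 against 687) lies far below it.

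The 15 genes with the highest ratio among those with at least 50 UMIs in the class began with F13a1, Cd163 and Aoah. Aoah, an enzyme that deacylates bacterial lipopolysaccharide, stood at 728 against 10.1 CPM (72.1-fold). Dab2, an endocytic adaptor, stood at 2084 against 39.6 (52.6-fold), and Colec12, a scavenger receptor of the collectin family, at 512 against 14.8 (34.7-fold). Rbpj, the DNA-binding partner of Notch, stood at 3044 against 128 (23.7-fold) and was higher in each of the 11 libraries. Its library values ran from 1756 to 5300 in perivascular macrophages and from 62.2 to 205 in microglia. Ms4a4a stood at 404 against 11.7 and F630028O10Rik at 462 against 11.7. Iqgap2 was 23.2 times, the exchange factors Vav3 16.1 times and Arhgef3 13.7 times, and the endocytic scaffold Itsn1 12.8 times the microglial level. Dse, an enzyme of dermatan sulfate synthesis, was 12.7 times and the scavenger receptor Stab1 9.60 times higher. The 15 genes were higher in each of the 11 libraries, except F630028O10Rik, which was higher in 10 and undetected in the other. The 15, Rbpj among them, were chosen by their ratio over these same libraries, and the class was named from expression. Agreement between the libraries follows largely from that choice, so nothing is read from it.

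Of 16 scavenger and endocytic receptor genes in the files, 10 were at least 4 times higher than in microglia and none at least 4 times lower. Of the 10, Mrc1, Cd163, Stab1, Lyve1, Colec12 and Dab2 are also on the list of perivascular macrophage markers, so the count partly restates the class name. At a mean of at least 50 CPM, 9 of 13 members were at least 4 times higher, beside the 2.97% of all genes given above, and nothing is read from that excess either. Beyond those already named, the lipid scavenger receptor Cd36 stood at 123 CPM (17 UMIs) against 0.777 in microglia (1 UMI). The resulting ratio of 158 has a counting interval that starts at 24.7. Msr1, the class A scavenger receptor, stood at 123 against 4.66, and the inhibitory Fc receptor Fcgr2b at 224 against 36.5. Lrp1, an endocytic receptor, lay on the other side at 115 against 237. The hyaluronan receptor Lyve1, which marks a subset of perivascular macrophages, had 7 UMIs in all and was found in 6 of the 11 libraries. No member of the MHC class II list, which marks another subset, reached a mean of 50 CPM. The invariant chain Cd74 had 12 UMIs and stood 8.57 times above its microglial level (counting interval 3.57 to 20.4). H2-Aa had 8 UMIs (7.43 times, 2.55 to 20.9) and H2-Eb1 had 7 (7.22 times, 2.29 to 21.8).

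Microglial markers were lower in perivascular macrophages than in microglia, and 11 of the 12 had at least 1 UMI. Selplg, a ligand of selectins, had 4 UMIs in the class and stood at 28.8 against 687 in microglia (23.8-fold lower). Sall1, a transcription factor of microglial identity, stood at 21.6 (3 UMIs) against 207, no higher than the 27.7 in oligodendrocytes. Cx3cr1, the fractalkine receptor, stood at 173 against 862 (4.98-fold lower) and 28.8 in oligodendrocytes. Siglech stood at 267 against 929 and 16.2 in oligodendrocytes. Tmem119 had 0 UMIs in 138655, which allows up to 21.6 CPM and places it at least 3.59-fold under its microglial level of 77.7. P2ry12, the purinergic receptor, was the nearest to microglia at 382 against 817. Its library range of 185 to 883 overlapped the microglial range of 491 to 1168. Other genes with a low ratio were Nav2 (353 against 3025), Plxdc2 (411 against 3268), Atp8a2 (64.9 against 634), the transforming growth factor β receptor Tgfbr1 (339 against 1728) and Numb, an inhibitor of Notch (195 against 1086). At least 1 UMI of 12 microglial markers was found in 71 of the 125 nuclei, and each of the 125 had more UMIs of the perivascular list than of the microglial one. The nuclei were named from expression and that list holds Mrc1, F13a1 and Cd163, so this count largely restates the class name.

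**Figure D2:**
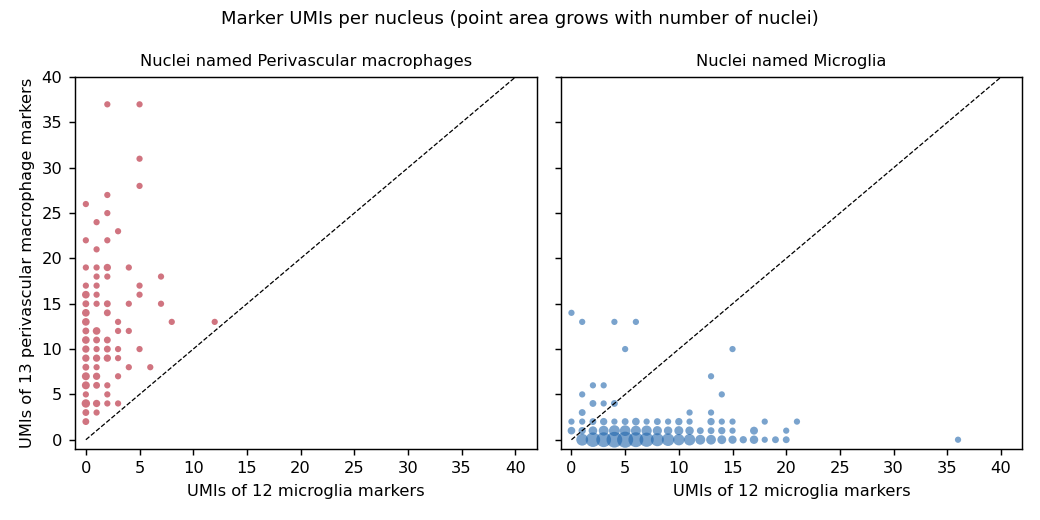
UMIs of 12 microglial markers (horizontal) and 13 perivascular macrophage markers (vertical) per nucleus, for nuclei named perivascular macrophages (left) and microglia (right). Points mark each combination of counts and grow with the number of nuclei, and the dashed line marks equal counts. The 125 perivascular macrophages lie above the line, as do 19 of the 1175 microglia. The nuclei were named from expression, so the position only describes them.

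Of 10 genes of macrophages in general with a mean of at least 50 CPM, 9 were within 2-fold of microglia. The share over all genes at that level was 84.6%, so the count is near the background and is not particular to these genes. Csf1r stood at 526 against 574, the leukocyte phosphatase Ptprc at 433 against 409, and the complement gene C1qa at 188 against 154. Runx1 stood at 837 against 754, Spi1 at 209 against 212 and Dock2, a regulator of leukocyte migration, at 692 against 776. Laptm5 was the exception at 28.8 against 110, from 4 UMIs. Among transcription factors, Zeb2 stood at 2488 against 1762 and was higher in the 11 libraries. Maf, a factor of resident macrophages, stood at 1060 against 391 and was also higher in the 11 libraries. Mef2c stood at 1298 against 1302, and Mef2a at 930 against 1740. Tfec had 8 UMIs and stood at 57.7 against 1.55.

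Iron, lysosomal and nucleic acid sensing genes bear on an oligonucleotide carried through the TfR. The mouse gene Tfrc gave 1 UMI in 1 of the 125 nuclei (0.800%, exact binomial 95% interval 0.0203 to 4.38%). It was found in 1.70% of microglia and in 23.6% of vascular endothelial nuclei, whose median depth was 960.5 UMIs. How the knocked-in human sequence was counted is not given in the sources used here, and nuclear RNA does not measure receptor protein. Ferroportin (Slc40a1), the iron exporter, stood at 144 against 88.6 and the ferritin heavy chain Fth1 at 1075 against 1089. The ferroxidase ceruloplasmin (Cp) stood at 296 against 76.1 and was higher in the 11 libraries. Of 12 lysosomal genes with a mean of at least 50 CPM, 8 were within 2-fold of microglia, beside 84.6% of all genes at that level. Nothing is read from that count. The protease Ctsb was higher (310 against 142), while Ctss was lower (180 against 405). The RNA sensor Tlr7 stood at 151 against 150, and Tlr9, which senses DNA, had 0 UMIs. Tlr8, another RNA sensor, had 6 UMIs and stood 18.6 times above its microglial level (counting interval 3.97 to 115). The interferon-induced gene Oasl2 had 9 UMIs and stood at 64.9 against 7.77 CPM (8.36-fold). Rnaseh1, the nuclease that cuts RNA paired with an ASO, had 2 UMIs.

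Markers of lymphocytes, neutrophils and mast cells were at 0, while some of monocytes, dendritic cells and vessel cells were detected. No UMI was found of 4 T cell, 3 B cell, 3 neutrophil or 2 mast cell markers. Of the monocyte markers Ly6c2, Plac8 and Chil3 had 0 UMIs, and Ccr2 had 10, at 72.1 against 11.7 CPM in microglia (6.19-fold, counting interval 2.49 to 14.7). Its library values reached 427 CPM in OTV:Malat1 and 84.7 in ATV:BACE1 and were 0 in nonTV:Malat1 and Malat1 ASO. Ccr2 stood above microglia in 2 of the 11 libraries, and the ratio rests mainly on 1 of them. Of the dendritic cell markers Zbtb46 had 4 UMIs (4.64-fold, 1.02 to 17.3), Cd209a 2, Flt3 1 and Xcr1 0. The pericyte genes Pdgfrb, Abcc9 and Kcnj8 and the fibroblast genes Col1a1, Col1a2 and Slc47a1 also had 0. The pericyte gene Rgs5 had 7 UMIs, all in 1 library, and stood at 50.5 against 12.4 CPM in microglia (4.06-fold, counting interval 1.41 to 10.4), while Vtn had 4 UMIs. Of the fibroblast genes Dcn had 2 and Ranbp3l 1. The 5 endothelial markers had 2 to 4 UMIs each and summed to 93.8 CPM against 96.3 in microglia. The 6 neuronal markers summed to 779 CPM against 924 in microglia and 5696 in neurons, and the 5 oligodendrocyte markers to 1688 against 2051 in microglia and 9508 in oligodendrocytes. Ttr, a choroid plexus gene, was found in 83.2% of the nuclei, in 78.2% of microglia and in 76.0% of the deeper neurons. After thinning to 500 UMIs these shares were 61.0%, 57.3% and 20.3%. Astrocyte markers moved with the library: they ran from 472 to 4124 in nonTV:Malat1, from 294 to 2290 in ATV:BACE1, from 328 to 1235 in Malat1 ASO and from 184 to 734 in OTV:Malat1. Their part in the gene results between groups was not tested.

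The share of nuclei in the class did not differ between dosing groups beyond the test's threshold, and its value depended on the nuclei counted. ATV:BACE1 replicates 1, 4 and 5 held 12, 8 and 9 perivascular macrophages, 0.0927% ± 0.0120 of nuclei (SD, n = 3). The numbers were 14, 10 and 10 in nonTV:Malat1 (0.122% ± 0.0209, SD, n = 3) and 15 and 10 in replicates 1 and 5 of Malat1 ASO (0.130% ± 0.0472, SD, n = 2). OTV:Malat1 held 21, 11 and 5 (0.127% ± 0.0830, SD, n = 3), the widest spread of the groups. Against ATV:BACE1 the log2 difference by edgeR's quasi-likelihood test was 0.40 (SE 0.647, adjusted p = 0.999) for OTV:Malat1, 0.39 (SE 0.650, adjusted p = 0.685) for nonTV:Malat1 and 0.47 (SE 0.715, adjusted p = 0.996) for Malat1 ASO. Without OTV:Malat1 replicate 1 the first of these became -0.17, and without its replicate 5 it was 0.90 (adjusted p = 0.0650). Microglia of OTV:Malat1 replicates 1, 4 and 5 numbered 202, 67 and 74 (1.11% ± 0.716 of nuclei, SD, n = 3). Against ATV:BACE1 the microglial log2 differences were also positive, at 0.49, 0.49 and 0.88 for OTV:Malat1, nonTV:Malat1 and Malat1 ASO (edgeR adjusted p 0.999, 0.685 and 0.969). Among the 53 perivascular macrophages of at least 1000 UMIs the differences were 1.81, 1.93 and 1.86 for OTV:Malat1, nonTV:Malat1 and Malat1 ASO (edgeR adjusted p 0.258, 0.186 and 0.329). The perivascular macrophages of ATV:BACE1 had the lowest library medians of UMIs, as given above. The part of this depth in the differences was not tested. As a share of perivascular macrophages and microglia together, without that minimum, the differences turned to -0.17, -0.091 and -0.31. A share of captured nuclei does not give the number of cells in the tissue.

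Malat1 is a long non-coding RNA kept in the nucleus and is the target of the 3 oligonucleotide treatments. The gene lies on the minus strand at chr19:5795690-5802672 (GRCm38, GENCODE vM21) and is annotated as a long intergenic non-coding RNA. With the nuclei of a group pooled, Malat1 made up 5.10% of UMIs in ATV:BACE1 (1304 of 25587 UMIs in 29 nuclei, exact binomial 95% interval 4.83 to 5.37%). It made up 5.39% in nonTV:Malat1 (2309 of 42861 in 34 nuclei, 5.18 to 5.61%), 3.24% in OTV:Malat1 (1256 of 38755 in 37 nuclei, 3.07 to 3.42%) and 5.86% in Malat1 ASO (1844 of 31452 in 25 nuclei, 5.61 to 6.13%). The pooled OTV:Malat1 level was 63.6% of the control, that of nonTV:Malat1 106% and that of Malat1 ASO 115%. These intervals cover counting error and not the spread between libraries.

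By library the same order held with an overlap. ATV:BACE1 replicates 1, 4 and 5 had Malat1 at 4.46%, 5.28% and 6.01% of the class UMIs (mean 5.25% ± 0.772, SD, n = 3). The nonTV:Malat1 libraries had 4.39%, 6.03% and 5.78% (5.40% ± 0.881, SD, n = 3), and the 2 Malat1 ASO libraries 6.11% and 5.63% (5.87% ± 0.340, SD, n = 2). OTV:Malat1 had 3.13%, 2.81% and 4.64% (3.53% ± 0.978, SD, n = 3). Replicates 1 and 4 of OTV:Malat1 were below each library of the other groups, and replicate 5, with 5 nuclei, lay within the ranges of ATV:BACE1 and nonTV:Malat1. In the edgeR test over 1659 genes the log2 difference from ATV:BACE1 was -0.58 for OTV:Malat1 (SE 0.283, unadjusted p = 0.0461, adjusted p = 1.00). It was 0.042 for nonTV:Malat1 (SE 0.281, unadjusted p = 0.883, adjusted p = 0.998) and 0.16 for Malat1 ASO (SE 0.313, unadjusted p = 0.607, adjusted p = 0.983). By the same edgeR test OTV:Malat1 differed from nonTV:Malat1 by -0.62 (SE 0.283, unadjusted p = 0.0326, adjusted p = 0.905). It differed from Malat1 ASO by -0.74 (SE 0.311, unadjusted p = 0.0208, adjusted p = 0.996). None of the 5 differences passed the threshold of 0.05 for the adjusted p. Estimates with 2 SE on either side ran from -1.14 to -0.011 for OTV:Malat1, from -0.52 to 0.60 for nonTV:Malat1 and from -0.46 to 0.79 for Malat1 ASO against the control. Exact two-sided permutation tests of the library shares gave p = 0.2 for OTV:Malat1 against ATV:BACE1 and against nonTV:Malat1, where 3 libraries against 3 cannot go below 0.1. The exact permutation p was also 0.2 for OTV:Malat1 against Malat1 ASO, the smallest that 3 libraries against 2 allow.

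**Figure D3:**
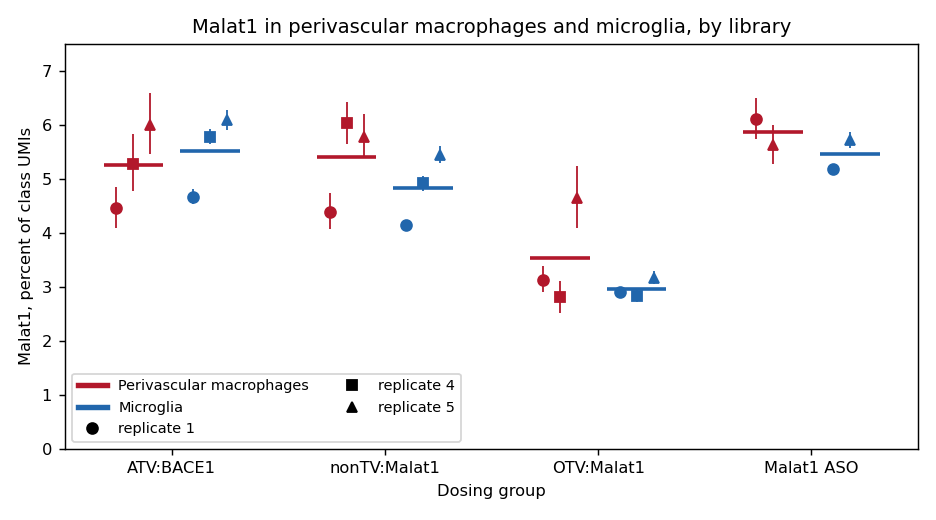
Malat1 as a percent of class UMIs (vertical) by dosing group (horizontal) in perivascular macrophages (red) and microglia (blue). Symbols are libraries with exact binomial 95% intervals, and bars are group means over libraries. OTV:Malat1 perivascular macrophages sit at 3.13%, 2.81% and 4.64%, and the OTV:Malat1 microglia between 2.82% and 3.17%.

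Within each batch the OTV:Malat1 library was below the others. Its Malat1 level was 70.2%, 53.1% and 77.2% of that of ATV:BACE1 in replicates 1, 4 and 5, and 71.3%, 46.5% and 80.3% of that of nonTV:Malat1. Against Malat1 ASO it was 51.3% in replicate 1 and 82.4% in replicate 5. The nonTV:Malat1 library stood at 98.4%, 114% and 96.2% of its ATV:BACE1 partner, and the Malat1 ASO library at 137% and 93.7%. With the replicate number as a block the difference of OTV:Malat1 from ATV:BACE1 was -0.59 with an adjusted p = 0.998 by edgeR.

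Large single nuclei weighed on these sums. The largest nucleus gave from 10.1% of a library's class UMIs (OTV:Malat1 replicate 1) to 45.4% (Malat1 ASO replicate 5, 1 nucleus of 7352 UMIs), and 35.1% in OTV:Malat1 replicate 5. With each nucleus weighted equally, a setting chosen after the data had been seen, OTV:Malat1 had Malat1 at 3.08%, 2.88% and 3.71% of UMIs. ATV:BACE1 then had 4.47%, 5.12% and 6.07%, nonTV:Malat1 4.51%, 5.00% and 4.84%, and Malat1 ASO 5.39% and 4.33%. OTV:Malat1 no longer overlapped any other group. The exact permutation p was 0.1 against ATV:BACE1 and against nonTV:Malat1, the smallest possible, for log2 differences of -0.69 and -0.57. In that setting nonTV:Malat1 and Malat1 ASO were on the lower side of the control, at -0.13 and -0.10. Without the 3 nuclei of over 3000 UMIs, also chosen after the data had been seen, OTV:Malat1 overlapped each other group. The overlap with Malat1 ASO was absent from the library shares given above. It arose as Malat1 ASO replicate 5 went from 5.63% to 3.94%. The log2 differences were then -0.57, -0.43 and -0.51 from ATV:BACE1, nonTV:Malat1 and Malat1 ASO, with exact permutation p of 0.2, 0.3 and 0.4. ATV:BACE1 and OTV:Malat1 held none of the 3 nuclei. Their comparison therefore repeats the library shares given above, and this setting could not change it.

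Per nucleus, the counts were compared after thinning each of the 125 nuclei to 500 UMIs, which left none out. The median Malat1 count was 25 in ATV:BACE1, 22.5 in nonTV:Malat1, 13 in OTV:Malat1 and 23 in Malat1 ASO. Nuclei under 20, the lower quartile of the control, made up 20.7% of ATV:BACE1 (6 of 29), 35.3% of nonTV:Malat1 (12 of 34) and 32% of Malat1 ASO (8 of 25). In OTV:Malat1 they made up 70.3% (26 of 37, exact binomial 95% interval 53.0 to 84.1%). Without thinning, and with the share of UMIs in place of the count, 67.6% of OTV:Malat1 nuclei were under the control's lower quartile, against 24.1%, 35.3% and 32% of the others. The thinned counts ran from 4 to 40 in OTV:Malat1, 11 to 44 in ATV:BACE1, 7 to 56 in nonTV:Malat1 and 3 to 77 in Malat1 ASO. These ranges overlapped, and the lowest count was in Malat1 ASO. Nuclei of a library are not replicates, and no test was made on them.

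**Figure D4:**
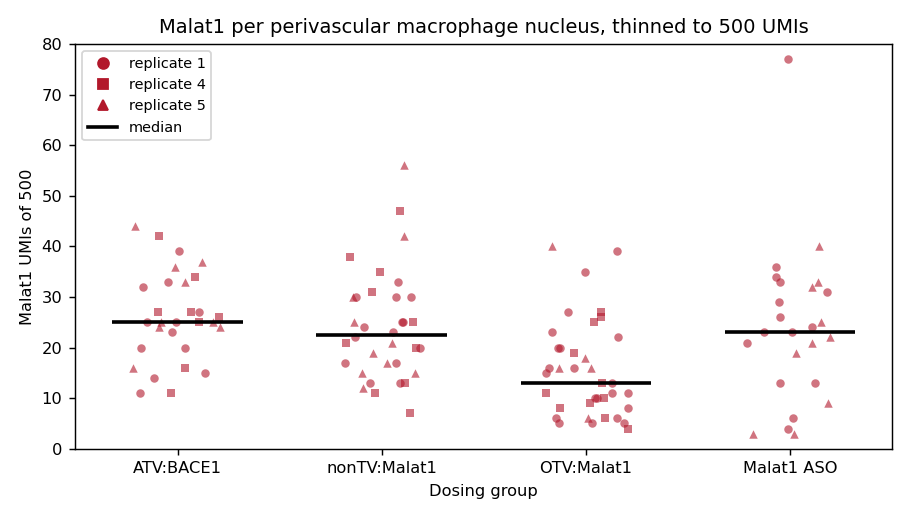
Malat1 UMIs among 500 drawn from each perivascular macrophage nucleus (vertical) by dosing group (horizontal), with symbols for the replicate and a bar at the group median. The bar is at 13 in OTV:Malat1, against 25, 22.5 and 23 in ATV:BACE1, nonTV:Malat1 and Malat1 ASO, while single OTV:Malat1 nuclei reach 40.

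Microglia of the same libraries had Malat1 at 5.52% ± 0.749 in ATV:BACE1, 4.83% ± 0.659 in nonTV:Malat1 and 2.97% ± 0.181 in OTV:Malat1 (SD, n = 3 each), and 5.46% ± 0.384 in Malat1 ASO (SD, n = 2). Their thinned median was 14 in OTV:Malat1 and 23 in the control, and 72.0% of the OTV:Malat1 microglia were under the control's lower quartile. The change of OTV:Malat1 against ATV:BACE1 in perivascular macrophages minus that in microglia was 0.29 on the log2 scale (SE 0.249, adjusted p = 1.00, edgeR with the library as a block). With 2 SE on either side this ran from -0.21 to 0.78. It was 0.12 without OTV:Malat1 replicate 5 and was 0.53 among nuclei of at least 1000 UMIs (edgeR adjusted p = 0.999 and 0.794). The ratio of the classes, as a log2 value per library, was -0.066, -0.13 and -0.022 in ATV:BACE1 and 0.11, -0.0093 and 0.55 in OTV:Malat1. These values did not overlap (exact permutation p = 0.1, the smallest possible), with replicate 5 of OTV:Malat1 far above the rest. The nonTV:Malat1 values of 0.086, 0.29 and 0.085 were also above those of ATV:BACE1 (exact permutation p = 0.1). Among the other nuclear long non-coding RNAs Neat1, which lies next to Malat1, stood at 541 against 328 CPM in microglia. Its libraries ran from 368 to 712 in OTV:Malat1 and from 442 to 572 in ATV:BACE1, which overlap.

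The marker genes are given by group as a description. They were among the genes tested below, but nothing is read from that test, since nuclei were named from their expression. In replicates 1, 4 and 5 Mrc1 stood at 1525, 2719 and 3681 CPM in ATV:BACE1 and at 3703, 2611 and 1841 in OTV:Malat1. Mrc1 in nonTV:Malat1 stood at 3909, 1809 and 1833, and in Malat1 ASO at 2360 and 988. F13a1 stood at 3642, 1860 and 3975 in ATV:BACE1, 3976, 2814 and 2596 in nonTV:Malat1, 3988, 3589 and 3130 in OTV:Malat1, and 4327 and 1790 in Malat1 ASO. Cd163 stood at 339, 572 and 442 in ATV:BACE1, 472, 201 and 535 in nonTV:Malat1, 332, 653 and 184 in OTV:Malat1, and 656 and 247 in Malat1 ASO. The groups overlap for each of the 3 genes.

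Across the 1659 genes with at least 20 UMIs over the 11 libraries, 0 genes passed an adjusted p of 0.05 by edgeR for OTV:Malat1, nonTV:Malat1 and Malat1 ASO against ATV:BACE1 (0% of genes called), while 58, 89 and 67 had an unadjusted p under 0.05. DESeq2 also called 0 in each. OTV:Malat1 against Malat1 ASO called 0 as well (0%, 60 unadjusted), and OTV:Malat1 against nonTV:Malat1 called 1 gene (0.0603% of genes, 85 unadjusted), where DESeq2 called 0. Of the macrophage, microglial and pathway lists, members that were tested numbered 7 perivascular macrophage markers, 8 macrophage genes, 7 scavenger receptors, 7 transcription factors, 6 lysosomal genes, 4 microglial markers, 3 iron genes, 2 inflammatory genes, 5 nuclear long non-coding RNAs, 2 RNase H or paraspeckle genes and 1 nucleic acid sensing gene, and 0 of them passed in any comparison. Among the 44 different genes on these lists that were tested, an unadjusted p under 0.05 by edgeR was found for 2 in OTV:Malat1, 2 in nonTV:Malat1 and 1 in Malat1 ASO against ATV:BACE1. It was found for 3 in OTV:Malat1 against nonTV:Malat1 and for 2 in OTV:Malat1 against Malat1 ASO. In the same order of comparisons, 58, 89, 67, 85 and 60 of all 1659 genes had such an unadjusted p. No excess is therefore read from the counts on the lists. Besides Malat1 the list members were Slc40a1, Siglech, the lysosomal membrane protein Scarb2 and the non-coding RNA Meg3. Slc40a1 had 0 UMIs in ATV:BACE1, while nonTV:Malat1 held 23 of the 37 Siglech UMIs and 13 of the 21 Scarb2 UMIs, so these 3 genes reached 20 UMIs through the groups where they were higher. Nothing is read from the members of the perivascular and microglial lists, on which the class name rests. The called gene was Pcdh15, a protocadherin that neurons and oligodendrocytes express more than this class. It had 30 UMIs in 6 nuclei of nonTV:Malat1 and 0 in OTV:Malat1, where a floor of 3 UMIs over the group makes it at least 9.04-fold lower (edgeR adjusted p = 0.0420). The other groups together had 5 UMIs, so the gene reached the minimum of 20 only through the group where it was high, and nothing more is read from the call. The nonTV:Malat1 replicates 1, 4 and 5 held 1, 5 and 24 of these UMIs, and without replicate 5 the bound was 2.60-fold and the call was lost. The comparison called 0 genes in 7 of the 11 fits that leave out 1 library. A single nucleus of replicate 5 held 18 of the 30. The 3 nuclei with the most Pcdh15 UMIs held 12, 8 and 3 UMIs of 5 astrocyte markers, 2, 1 and 1 of 6 neuronal markers and 0 of 5 oligodendrocyte markers. They also held 1, 2 and 1 UMIs of 3 markers of oligodendrocyte precursors, which had 12 UMIs over all nuclei of the class. Pcdh15 itself stood at 108 CPM in astrocytes, 796 in neurons and 423 in oligodendrocytes, against 252 in perivascular macrophages. Changes that differed from those in microglia were called by edgeR for 4 genes in nonTV:Malat1 against ATV:BACE1 (0.241% of genes), 1 in Malat1 ASO against ATV:BACE1 (0.0603%), 4 in OTV:Malat1 against nonTV:Malat1 (0.241%) and 1 in OTV:Malat1 against Malat1 ASO (0.0603%). None of these genes is on a list of macrophage or microglial genes, and Gpc5 is on the list of astrocyte markers. Each stands at a higher level in astrocytes, neurons or oligodendrocytes than in perivascular macrophages. Nkain2 (1700 against 1284 CPM) and Unc5c (245 against 195 CPM) are also higher in microglia. The share of all tested genes with a higher level in 1 of those classes is not given here, so nothing is read from it.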

How the data were processed

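The 11 single-nucleus libraries of mouse brain were analysed from the matrix of UMI counts deposited by the authors, whole numbers with no normalization for 25938 gene symbols. The deposited metadata give the percent of mitochondrial UMIs, a class prediction score as a fraction, class names, clusters, doublet calls and batches. The submitters' processing notes list Cell Ranger 5.0.0, Seurat 4 and mm10 without their role. Counts were summed per library over the nuclei of a class. Sums were tested with edgeR 4.0.16 (glmQLFit, glmQLFTest, R 4.3.3), all 4 groups in one fit, with total UMIs as size, a minimum of 20 UMIs and Benjamini-Hochberg adjustment over 1659 genes at 0.05. DESeq2 1.42.0 was an alternative. The script was tested on simulated data. Thinning to 500 UMIs, exact permutation and exact binomial intervals used Python 3.11.15 with scipy 1.17.1. Doublet calls were kept as deposited.

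The members and gene lists were chosen with earlier results of these data known. Named genes were Malat1 and the 3 markers, the 15 highest ratios to microglia (at least 50 UMIs) and the 15 lowest (at least 500 microglial UMIs), called genes, and from each list the up to 4 highest and those over 4-fold apart with at least 20 UMIs. Others named in the text, such as Tfrc, Lyve1 and genes at 0, were chosen after their values were seen. The replicate numbers pair libraries through the deposited batch. Centred class sums of the same number had a median correlation of 0.066 (15 pairs, -0.061 to 0.26) against -0.019 for different numbers (30 pairs). Libraries hold 33235994 to 43972886 UMIs over all nuclei. The labels do not say outright that libraries are separate mice, so p-values measure the spread between libraries. A few list members are not reported here.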

Additional observations from a re-analysis of the deposited data

Results flagged for a closer look

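For 7 genes the change between dosing groups in perivascular macrophages differed from that in microglia by the edgeR test of the difference itself, with the library as a block, which made 10 calls over 4 of the 5 comparisons. In nonTV:Malat1 against ATV:BACE1, 4 of 1659 genes passed (0.241%): Lsamp by a log2 value of 3.80 (SE 0.697 and adjusted p = 0.000673), Fam155a by 8.95 (adjusted p = 0.00869), Nkain2 by 2.46 and Pcdh15 by 4.63 (adjusted p = 0.0451 for both). In Malat1 ASO against ATV:BACE1, Nkain2 passed alone (0.0603%) at 2.76 (adjusted p = 0.0424). In OTV:Malat1 against nonTV:Malat1, 4 genes passed (0.241%): Pcdh15 at -9.17 (adjusted p = 0.000671; a fitted value and no bound, since OTV:Malat1 had 0 UMIs of it), Gpc5 at -5.06 (adjusted p = 0.00325), and Ntm at -3.38 and Lsamp at -2.45 (adjusted p = 0.0364 for both). In OTV:Malat1 against Malat1 ASO, Unc5c passed alone (0.0603%) at -5.04 (adjusted p = 0.0402). In OTV:Malat1 against ATV:BACE1, 0 genes passed in the edgeR fit and 71 had an unadjusted p under 0.05.

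The cell adhesion gene Lsamp stood at 169, 572 and 147 CPM in the perivascular macrophages of ATV:BACE1 replicates 1, 4 and 5 and at 337, 1943 and 3971 in those of nonTV:Malat1. In microglia of the same libraries it stood at 702, 1725 and 1818 and at 271, 1269 and 398. Fam155a had 0 UMIs in the 3 ATV:BACE1 libraries, so its fitted value is no bound on the change. Pcdh15 (30 UMIs in nonTV:Malat1 and 5 elsewhere), Fam155a (28 there and 13 elsewhere) and Unc5c (15 in Malat1 ASO and 12 elsewhere) reached the minimum of 20 UMIs only through the group where they were high, so nothing is read from their calls. Gpc5 and Lsamp were at 7411 and 11802 CPM in astrocytes, against 433 and 1118 in perivascular macrophages. Nkain2 was at 9875 in oligodendrocytes against 1284, Unc5c at 1083 against 195, and Fam155a at 2041 in neurons against 296. Within the group where each gene was high in its comparison, the nonTV:Malat1 nucleus with the most UMIs of that gene held 18 of 30 Pcdh15 UMIs (60%), 15 of 28 of Fam155a (53.6%), 21 of 57 of Nkain2 (36.8%), 13 of 37 of Gpc5 (35.1%), 10 of 29 of Ntm (34.5%) and 24 of 86 of Lsamp (27.9%). A nucleus of Malat1 ASO replicate 5 held 46 of that group's 75 Nkain2 UMIs (61.3%), and 1 held 7 of its 15 Unc5c UMIs (46.7%). By library, nonTV:Malat1 replicate 5 held 28 of that group's 37 Gpc5 UMIs, 21 of its 29 Ntm UMIs and 52 of its 86 Lsamp UMIs. The same library held 24 of 57 Nkain2 and 9 of 28 Fam155a UMIs, and replicate 1 of nonTV:Malat1 had 0 Gpc5 UMIs. The part of other cells' RNA and of single nuclei in these differences was not tested.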

How the results depend on the processing

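The Malat1 difference of OTV:Malat1 from ATV:BACE1 kept its sign and did not pass the threshold in 11 alternative fits, from -0.60 to -0.41 (adjusted p 0.932 to 1.00), nor with a library left out, from -0.82 (without OTV:Malat1 replicate 5) to -0.44 (without its replicate 4). The sign of nonTV:Malat1 against ATV:BACE1 was not stable: -0.14 with cluster 7 only, -0.13 with each nucleus weighted equally, -0.14 without nuclei over 3000 UMIs, and from -0.063 to 0.17 with a library left out. Malat1 ASO against ATV:BACE1 became -0.10 with each nucleus weighted equally and -0.063 without nuclei over 3000 UMIs. Minus the change in microglia, OTV:Malat1 against ATV:BACE1 ran from 0.12 to 0.40 with a library left out, OTV:Malat1 against nonTV:Malat1 became -0.078 with DESeq2 and -0.076 with TMM (-0.10 to 0.17 with a library left out), and OTV:Malat1 against Malat1 ASO became -0.0095 and -0.026 (-0.056 to 0.24). As a share of perivascular macrophages and microglia together, the nuclei differed from ATV:BACE1 by -0.17 (OTV:Malat1), -0.091 (nonTV:Malat1) and -0.31 (Malat1 ASO) on the log2 scale, with exact permutation p of 0.7, 0.9 and 0.6. The share in OTV:Malat1 ran from -0.17 to 0.90 with a library left out. Among nuclei of at least 1000 UMIs, 53 in all, the differences in share were 1.81, 1.93 and 1.86 (adjusted p 0.258, 0.186 and 0.329). The cause was not tested for any of these.

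The call of Pcdh15 in OTV:Malat1 against nonTV:Malat1 was lost (0 genes) with DESeq2, with filterByExpr and with nuclei holding a UMI of Mrc1, F13a1 or Cd163, and the count ran from 0 to 3 with a library left out. For nonTV:Malat1 against ATV:BACE1 it was 1 without a filter, with a prediction score of at least 0.5 and with the replicate block (Lsamp, 2.49, adjusted p = 0.0218), and from 0 to 4 with a library left out, the highest without nonTV:Malat1 replicate 1. It was 1 for OTV:Malat1 against Malat1 ASO without a filter and with the replicate block (Nrg1, 4.11, adjusted p = 0.00952, with 32 of the 36 OTV:Malat1 UMIs in 1 nucleus of replicate 5). For Malat1 ASO against ATV:BACE1 it ran from 0 to 3, the highest without Malat1 ASO replicate 1. The replicate block changed no other call. Where a library left out leaves Malat1 ASO with 1 library, that library is assumed to vary like the others. Settings on cluster 7, on equal weights and on nuclei over 3000 UMIs were chosen after seeing the data. The class sums rest on 5 to 21 nuclei a library.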

Other observations

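The 3 perivascular macrophage nuclei with over 3000 UMIs had 7352 (Malat1 ASO replicate 5), 3400 (nonTV:Malat1 replicate 5) and 3240 UMIs (nonTV:Malat1 replicate 4). They held 8, 6 and 13 UMIs of Mrc1, F13a1 and Cd163. The same nuclei held 30, 18 and 2 UMIs of 5 oligodendrocyte markers and 16, 37 and 0 UMIs of 5 astrocyte markers. Their Malat1 shares were 7.66%, 9.85% and 7.81% of UMIs, above the median nucleus of each group. The authors' doublet call marked none of them, and their deposited doublet scores were 0.790, 0.390 and 0.543. Of the nuclei named microglia, 19 of 1175 had more UMIs of the perivascular macrophage markers than of the microglial markers, and 11 of the 1175 had at least 5 UMIs of the former.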
